A study of Homo sapiens with 11 samples.

Results

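The mRNAs of respiratory complex I that are encoded in mitochondrial DNA were examined in an eCLIP study of the RNA-binding protein ZFP36L2. The genes MT-ND1, MT-ND2, MT-ND3, MT-ND4 and MT-ND6 were taken by name from the authors' deposited peak tables, where they accounted for 44 of 67083 peaks over input and for 5 of 6881 gene names. All clusters on the mitochondrial chromosome in the lists scored against control IgG were added, split by strand. MOLM13 and THP1 are established human acute myeloid leukaemia lines, and the labels name no treatment or genotype change. Cells were crosslinked by ultraviolet light at 254 nm, and an antibody against ZFP36L2, or control IgG, was used to pull down protein with its RNA. Each line had 2 ZFP36L2 immunoprecipitates and 2 IgG libraries, with 2 size-matched input libraries for MOLM13 and 1 for THP1. Each leukaemia is represented by a single line. The labels describe library steps done in duplicate and no separate cultures, so replicate spread may be purely technical.

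Complex I passes electrons from NADH to ubiquinone and pumps protons across the inner mitochondrial membrane. Most of its subunits are made from nuclear genes, while 7 come from mitochondrial DNA and form part of the membrane arm. Mitochondrial DNA is transcribed from both strands into long precursors that are cut at the tRNAs. Of its 13 mRNAs, MT-ND6 alone is read from the light-strand promoter and is called the light-strand mRNA here (minus strand in the files). The others are called heavy-strand mRNAs (plus strand). Most mitochondrial mRNAs have little or no untranslated sequence. ZFP36L2 belongs to the TIS11 family, whose members are known for binding AU-rich elements in 3' untranslated regions of cytoplasmic mRNAs and promoting their decay.

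Every fold and −log10 p given per peak or cluster is the authors' own value. Values are for replicate 1 and then replicate 2. Only peaks whose log2 fold and −log10 p over input both reach 3 are listed, and the same limits define "enriched" over IgG. Peaks often touch, so several can belong to 1 site. Positions are 1-based on hg38. The depth of the libraries is unknown, and no depth-based interval is given. No difference was tested, because 2 libraries against 2 cannot give a two-sided exact permutation p below 0.333.

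All peaks over input on the mitochondrial chromosome lay in complex I mRNAs, and all were annotated as coding sequence. There were 8 and 10 such peaks in MOLM13 and 11 and 15 in THP1. MT-ND1, MT-ND2 and MT-ND6 had a peak in all 4 immunoprecipitates. MT-ND3 had one in MOLM13 replicate 2 and in both THP1 replicates, and MT-ND4 in both THP1 replicates. Thus 3 of the 5 genes were called in both replicates of MOLM13, where 40.1% of the 10200 protein-coding genes with clusters were called. In THP1 all 5 were called, where 43.6% of 10777 genes were. A peak in all 4 immunoprecipitates was found for 3 of the 5 genes and for 38.0% of 9502 protein-coding genes. The genes were chosen because they have peaks in these tables, so their number is not read against that background. Per cluster, 10.3% and 7.9% of all MOLM13 clusters were enriched over input, as were 12.6% and 13.1% of those of THP1. The other 8 mitochondrial mRNAs, which are MT-ND4L, MT-ND5, MT-CO1, MT-CO2, MT-CO3, MT-ATP6, MT-ATP8 and MT-CYB, had clusters in every immunoprecipitate and no peak over input. The same was true of the ribosomal RNAs MT-RNR1 and MT-RNR2.

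MT-ND2, a core subunit of the membrane arm, had the highest fold of the heavy-strand members. Its main peak lay at chromosome M, 5090 to 5167, in MOLM13 replicate 1 and at 5087 to 5164 in THP1 replicate 1, within a gene of 4470 to 5511. Over input its log2 fold was 4.19 and 4.23 in MOLM13 and 5.29 and 5.30 in THP1. The lines did not overlap, and replicates lay closer to each other than the lines did. The share of all genes whose lines separate like this was not counted, for this gene or those below. Among genes with a peak in all 4 immunoprecipitates, the median difference between line means was 0.38, with THP1 higher. Against IgG, the MOLM13 replicates showed 2.93 and 2.99 at the main MT-ND2 peak, and those of THP1 3.27 and 4.28. It was the only site of the 5 genes that was enriched over IgG in both replicates of a line, and this was in THP1. In that line 29.1% of protein-coding genes had such a cluster, and 18.9% in MOLM13, where none of the 5 genes did. The MOLM13 values fell just short of the limit. Counted per cluster, no cluster of the 5 genes was enriched over IgG in MOLM13, where 5.11% and 2.49% of all clusters were. In THP1, MT-ND2 had 1 and 2 such clusters, where 5.74% and 8.36% of all clusters were enriched. At a lower limit of 2, tried after the data were seen, 3 genes passed in both MOLM13 replicates (28.3% of protein-coding genes) and 4 in both THP1 replicates (34.7%). Flanking parts of the site had lower folds. At 5036 to 5086 of THP1 replicate 1 the log2 fold was 3.92 over input and 1.68 over IgG.

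MT-ND1, the subunit next to the ubiquinone site, had all its input peaks at a single place. The 48 bases from 3621 to 3668 were enriched over input in all 4 immunoprecipitates, 314 to 361 bases after the start of the gene (3307 to 4262). Over input, the log2 fold of its highest peak was 3.76 and 3.86 (MOLM13) and 4.22 and 4.56 (THP1 cells). Over IgG, the highest MOLM13 clusters reached 2.62 and 2.75 and the highest THP1 clusters 2.53 and 2.99. THP1 lay above MOLM13 over input, and the lines overlapped over IgG. A second group of clusters further along the gene had lower values, with −0.22 at 4019 to 4061 in MOLM13 replicate 1 and 0.39 at 4020 to 4060 in THP1 replicate 2.

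MT-ND3 encodes a small subunit, and its mRNA follows the tRNA for glycine on the precursor. Its site began close to the 5' end, with 44 bases shared by the 3 immunoprecipitates that called it, 17 to 60 bases after the gene start (10076 to 10119 in a gene of 10059 to 10404). The log2 fold over input was 3.97 in MOLM13 replicate 2 and 3.37 and 3.36 in THP1. MOLM13 replicate 1 had clusters at the same place, at 10077 to 10119, which are not among its listed input peaks. Over IgG these reached 2.06, against 2.28 in replicate 2 and 2.34 and 2.40 in THP1. The 4 libraries were thus close to each other over IgG, although only 3 passed over input.

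Among the heavy-strand members, MT-ND4, an antiporter-like subunit of the membrane arm, had the lowest top cluster over IgG in each library. In THP1 its peaks at 11108 to 11133 and 11109 to 11132 had log2 folds over input of up to 3.46 and 3.13, barely above the limit for listing. Over IgG the highest cluster was 2.18 and 2.11 in THP1. MOLM13 had no listed peak, and its highest clusters over IgG, 0.58 and 1.52, lay below both THP1 values. Further along the mRNA, a cluster at 12000 to 12015 had −2.02 in THP1 replicate 1.

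**Figure D1:**
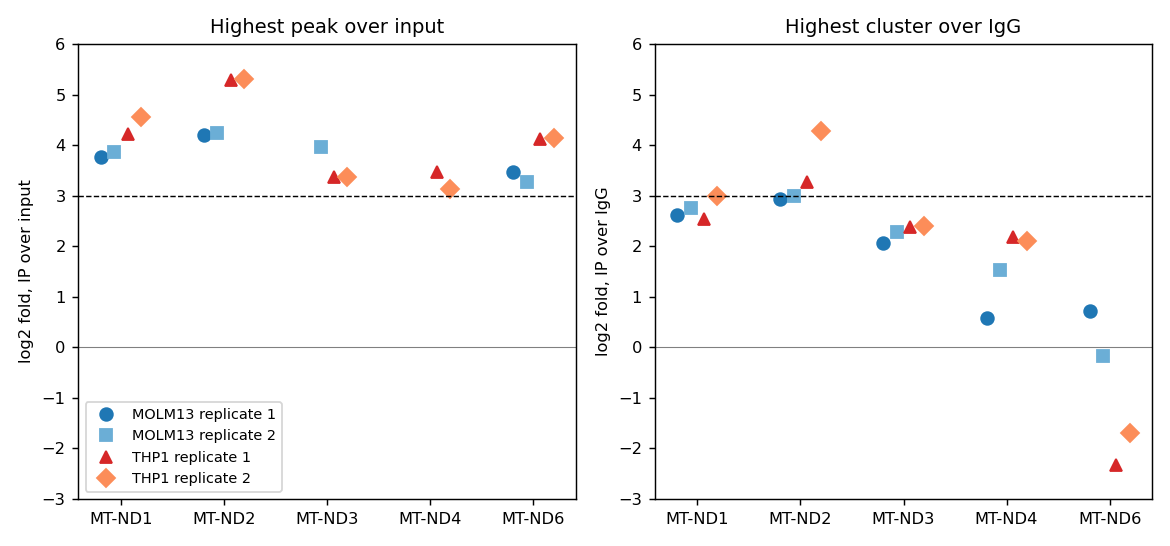
Highest log2 fold of each gene's peaks over input (left) and of its clusters over IgG (right), 1 point per immunoprecipitate; the dashed line is the limit of 3 and a missing point means that no peak is listed. Over input the genes sit between 3.13 and 5.30, while over IgG MT-ND6 drops to −2.32 and −1.70 in THP1.

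Over IgG, the highest clusters on the mitochondrial chromosome lay in heavy-strand members. A limit of 1, which was not among the planned limits, is used here. The share of all clusters that reach it was not counted, but such clusters are not rare. Among all clusters of their lists, 0.91 stood at percentile 64.5 in MOLM13 replicate 1 and 0.79 at 78.7 in replicate 2. In THP1 replicate 1 a value of 1.00 stood at percentile 70.2. Clusters with a log2 fold over IgG of at least 1 numbered 11 and 16 for MOLM13, with 13 and 14 for THP1, out of 190 and 214, and 152 and 147, on the mitochondrial chromosome. All of them lay in MT-ND1, MT-ND2, MT-ND3 and MT-ND4, of which MT-ND4 held 0 and 3 in MOLM13 and 4 in each THP1 replicate. The genes were not chosen on these IgG values, but the immunoprecipitates are the ones that gave the input peaks. The contrast with the other mitochondrial RNAs is therefore not independent of that choice. At the bases shared by the libraries that called a site, the mean log2 fold over IgG was set against other covered bases of the same mRNA. These other bases lie outside the whole span enriched over input in any library, so flanks of a site are left out. For MT-ND1 the omitted flanks were high (1.91 at 3572 to 3620 in MOLM13 replicate 1), which raises the excess. For MT-ND1, with 49 to 101 other bases covered, the excess was 2.36 and 2.24 in MOLM13 and 1.68 and 2.25 in THP1. For MT-ND4, with 292 to 321 other bases, it was 1.12 and 1.31, and 1.67 and 1.37. Both sites thus stood above these other bases in each library. For MT-ND3, with 5 to 15 other bases, the excess was smaller, at 0.75 and 1.19, and 0.69 and 0.97. MT-ND2 had only 1 other base covered. The sites were placed by input peaks of the same immunoprecipitates (for MT-ND4 those of THP1), so the excess is no independent support for them.

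**Figure D2:**
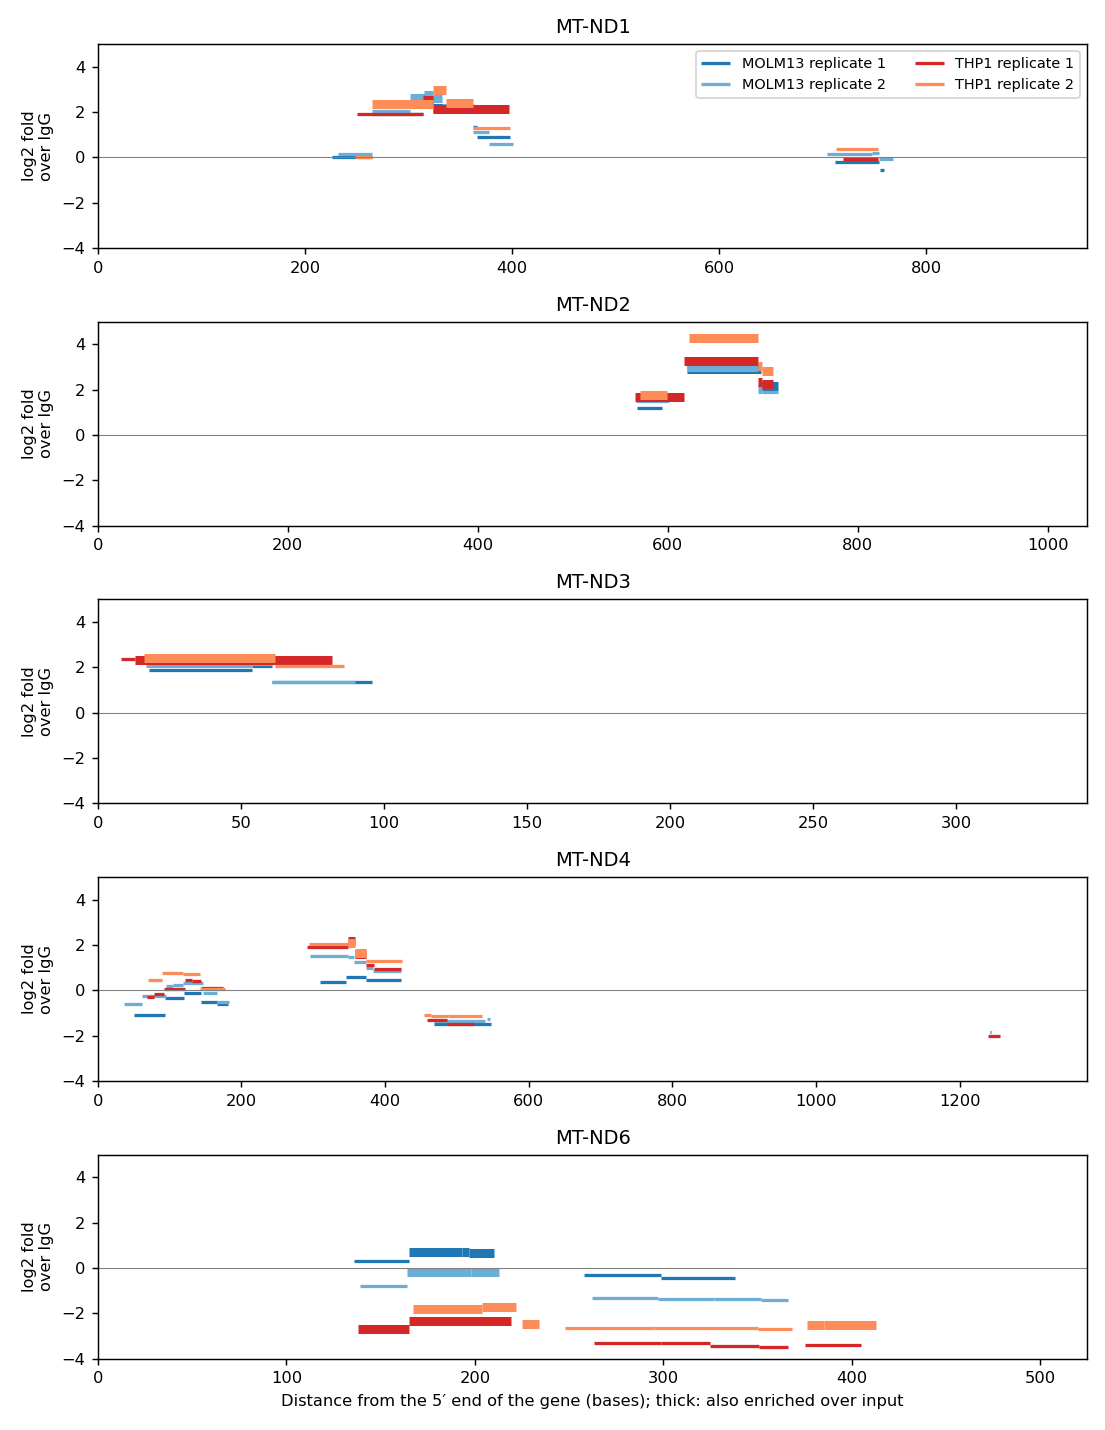
Log2 fold over IgG of every cluster along the 5 genes, by distance from the 5' end in bases; each bar spans 1 cluster of 1 immunoprecipitate and thick bars are also enriched over input. The 4 libraries place the sites of MT-ND1, MT-ND2 and MT-ND3 at the same distance, and the MT-ND6 bars spread from 0.72 in MOLM13 replicate 1 down to −3.49 in THP1 replicate 1.

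The other mitochondrial RNAs lay mostly below IgG. Ribosomal RNA clusters had a median log2 fold over IgG of −1.76 and −1.65 in MOLM13 and −2.33 and −2.16 in THP1. None of the 85 and 90, and 64 and 57, clusters lay above 0. Among all clusters of the same lists, 26.7% and 65.4% in MOLM13 and 45.7% and 39.6% in THP1 lay below 0. Clusters of tRNAs had −1.09 and −1.49, and −1.82 and −1.29. The mRNAs of the other respiratory complexes had −0.90 and −0.68, and −1.42 and −1.01. Heavy-strand complex I mRNAs, with MT-ND4L and MT-ND5 included, had −0.22 and 0.25, and 0.45 and 0.71. The median of all clusters in the same lists was 0.28 and −0.60, and 0.00 and 0.38. Heavy-strand complex I mRNAs were therefore above that median in MOLM13 replicate 2 and in both THP1 replicates, and below it in MOLM13 replicate 1. MT-ND4L, which shares a bicistronic mRNA with MT-ND4, had no cluster above IgG, and its highest values were −0.47 and −0.46 (MOLM13) and −1.49 and −1.02 (THP1). The highest cluster of MT-ND5 was 0.89 and 0.71 (MOLM13 replicates) and 1.00 and 0.52 (THP1 replicates). That of MT-CO3, a subunit of complex IV, was 0.91 and 0.79, and 0.22 and 0.60. These were the highest values outside the 5 genes, and the 1.00 of MT-ND5 lay just under 1 before rounding.

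**Figure D3:**
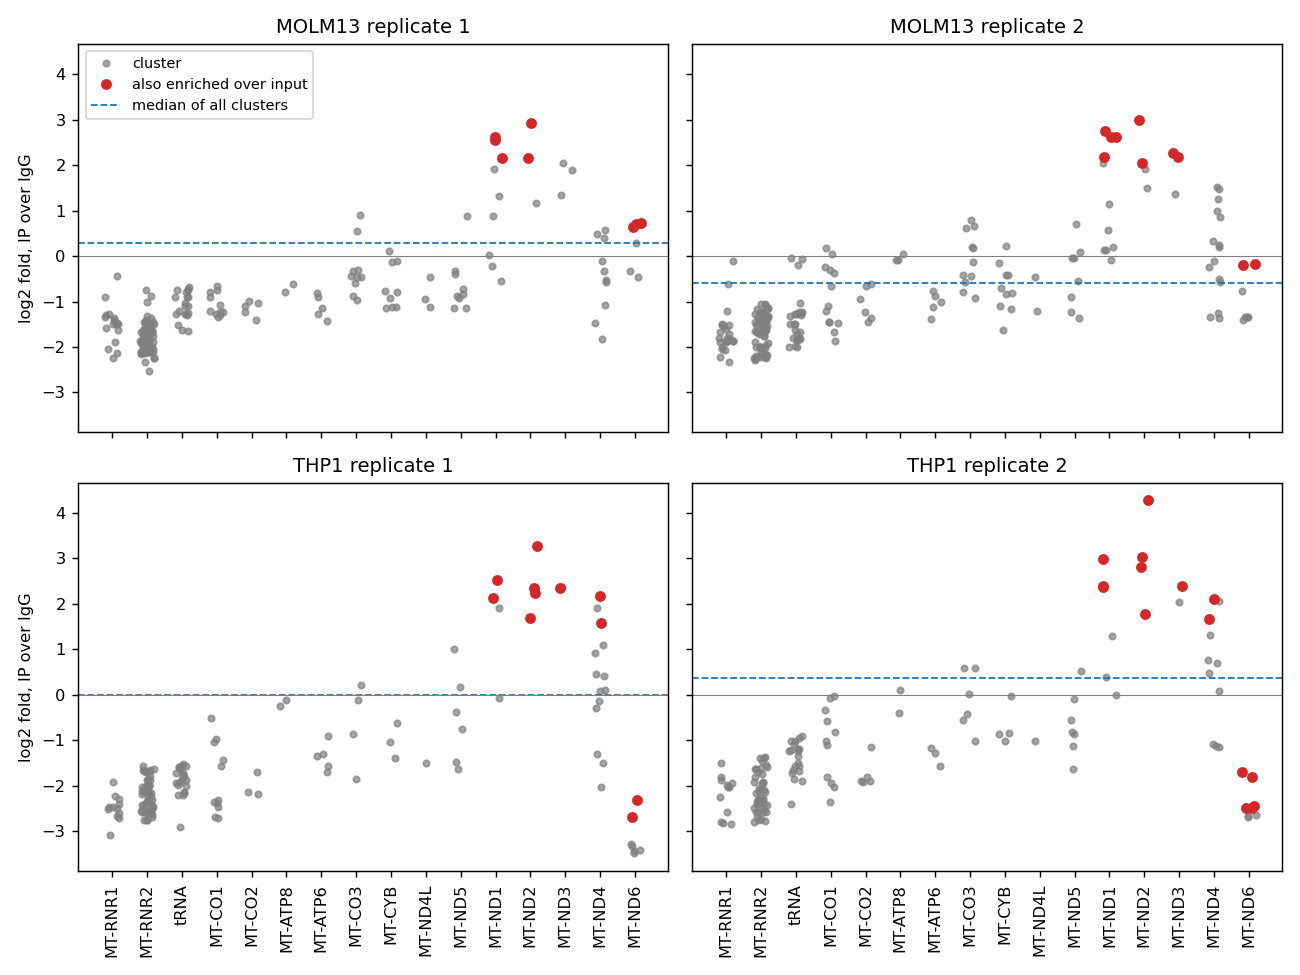
Log2 fold over IgG of all clusters on the mitochondrial chromosome by RNA, 1 panel per immunoprecipitate; red points are also enriched over input and the dashed line is the median of all clusters of that list. Red points occur only in MT-ND1, MT-ND2, MT-ND3, MT-ND4 and MT-ND6, and those of MT-ND6 lie below 0 in 3 of the 4 panels.

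MT-ND6, which encodes a membrane-arm subunit, had different values under the 2 controls. Over input its highest peak had a log2 fold of 3.46 and 3.27 in MOLM13 and 4.13 and 4.14 in THP1, at a site whose 43 shared bases ran from 14464 to 14506, 167 to 209 bases after the 5' end of the mRNA (14149 to 14673, minus strand). Over IgG the mean at these bases was 0.69 and −0.18 in MOLM13 and −2.32 and −1.79 in THP1. THP1 lay below both MOLM13 values, and the THP1 signal was lower in the immunoprecipitate than in IgG. THP1 replicate 2 listed a second site at 14261 to 14297, with up to 3.39 over input and −2.50 over IgG. Among all input peaks matched to the IgG lists, 0.236% and 1.17% in MOLM13 and 0.233% and 0.652% in THP1 lay below IgG. Of the MT-ND6 peaks, 0 of 3 and 2 of 2 did in MOLM13 and 2 of 2 and 5 of 5 in THP1. None of the heavy-strand peaks (5 and 8, and 9 and 10) did, and their log2 folds over IgG ranged from 1.59 to 4.28.

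The difference between the fold over input and the fold over IgG compares IgG with input at the same cluster, apart from how each list was scaled, which is unknown. For MT-ND6 this difference was at most 2.74 and 3.45 in the MOLM13 libraries, and 6.04 to 6.46 and 5.62 to 5.95 in THP1, against a median over all input peaks of 1.57 and 2.09, and 1.24 and 1.00. In THP1 the MT-ND6 peaks lay at or above percentile 99.6 of all input peaks of their list. In MOLM13 they lay between percentiles 81.2 and 85.2. The heavy-strand peaks ranged from 0.81 to 1.69 in MOLM13 (percentiles 17.6 to 44.3) and from 0.70 to 2.24 in THP1 (percentiles 18.4 to 76.7).

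**Figure D4:**
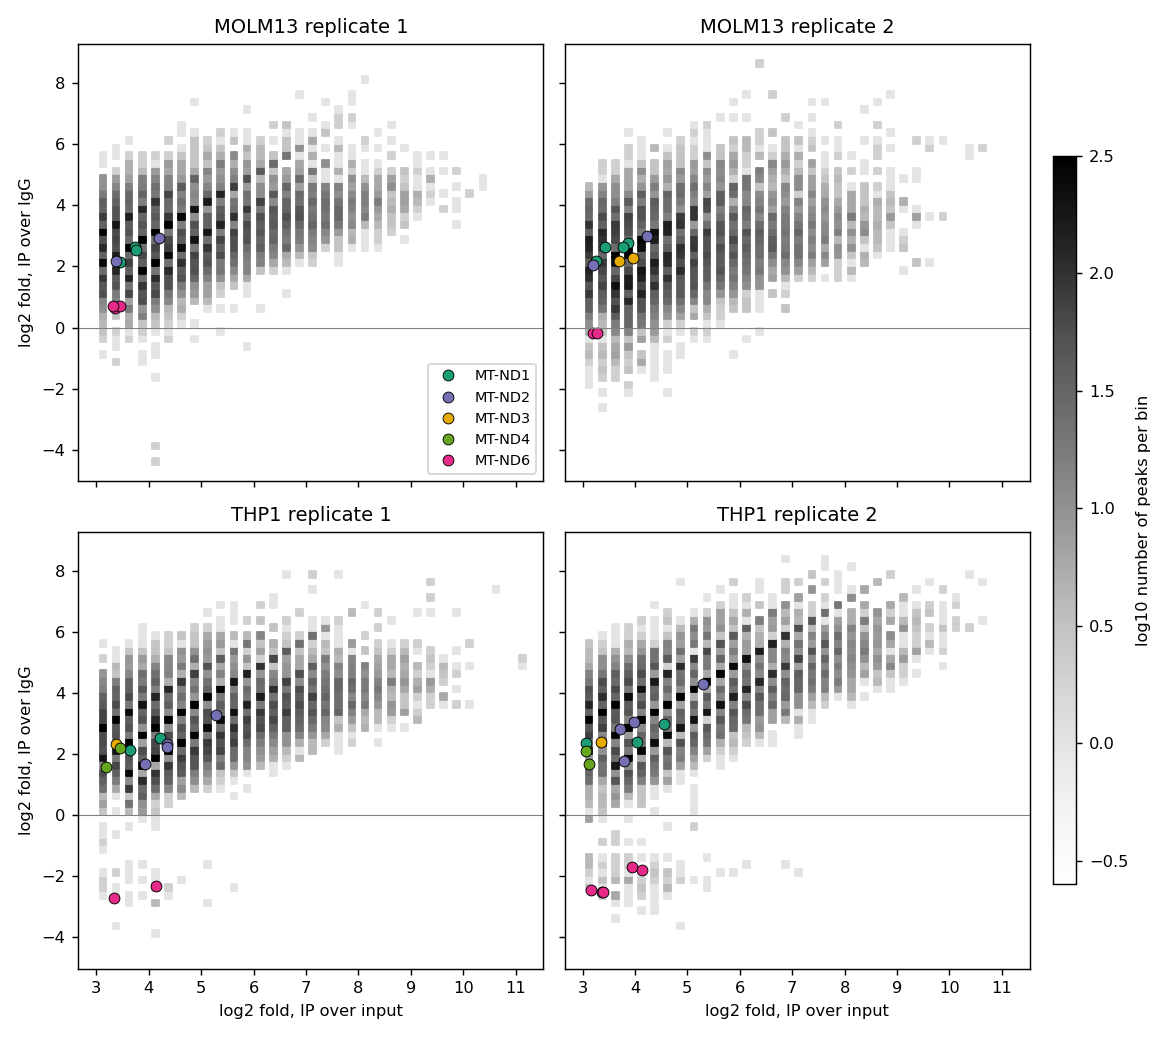
Log2 fold over IgG against log2 fold over input for every peak over input, 1 panel per immunoprecipitate; grey squares count all peaks in bins of 0.25 and coloured points are the peaks of the 5 genes. In THP1 the MT-ND6 points, from −1.70 to −2.70 over IgG, lie below the main cloud, while the heavy-strand points lie inside it.

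In THP1 the MT-ND6 peaks belonged to a small set of input peaks with a log2 fold below −1 over IgG, of which there were 36 in 22 genes and 103 in 58 genes. In MOLM13 there were 8 and 43. Other genes in the THP1 set, named after their values were seen, were NES and VGF. NES encodes the intermediate filament nestin of neural progenitors and VGF a neuropeptide precursor. NES had 6 and 10 such peaks in THP1, and 0 and 3 in MOLM13. Its clusters had a median log2 fold over IgG of −2.45 and −2.22 in THP1 and −0.11 and −1.15 in MOLM13. VGF had 3 and 5 such peaks in THP1, and 0 and 1 in MOLM13. Its medians were −2.44 and −2.14 in THP1 and 0.15 and −0.82 in MOLM13. SOX10 and CSPG4, known from neural crest and melanocytic cells and likewise named after their values were seen, had 0 and 2, and 1 and 1, such peaks in THP1. Their clusters had medians of −2.03 and −1.84, and −1.74 and −1.42, in THP1. In MOLM13 their medians were 0.20 and −1.10, and 0.28 and −0.94. These genes were picked for their low values and no list was counted, so they describe no gene group. Their part in the MT-ND6 result was not tested. Clusters of all these genes were present in both lines. What RNA the THP1 IgG libraries held, from these or other cells, was not tested either. The MT-ND6 folds over IgG in THP1 are given only as values relative to that control. Of 10 myeloid markers, 6 had clusters in both MOLM13 replicates and 7 in both THP1 replicates, while CD14 and FCGR1A had none. Of 10 markers of T, B, erythroid and epithelial cells, 1 (KRT8) had clusters in both MOLM13 replicates and none in both THP1 replicates.

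By strand, clusters were far fewer on the light strand, with 7 and 8 against 183 and 206 on the heavy strand in MOLM13, and 10 and 9 against 142 and 138 in THP1. Light-strand clusters lay only in MT-ND6 and in tRNA genes. No light-strand cluster lay antisense to a heavy-strand mRNA or rRNA, and no heavy-strand cluster overlapped MT-ND6. The median log2 fold over IgG of the light strand was 0.29 and −1.34 in MOLM13 and −3.10 and −2.50 in THP1. On the heavy strand it was −1.28 in both MOLM13 replicates, and −1.88 and −1.55 in THP1. Light minus heavy was therefore 1.57 and −0.06 in MOLM13, where replicates differed more than their mean of 0.75, and −1.21 and −0.95 in THP1. Between minus and plus strand of all nuclear clusters the medians differed by −0.12 and 0.09 in MOLM13 and by 0 in both THP1 replicates at 2 decimals. The MOLM13 value rests on replicate 1. Against the 4 heavy-strand members alone, a setting chosen after the data were seen, MT-ND6 differed by −0.11 and −2.33 in MOLM13 (mean −1.22), which rests on replicate 2. In THP1 it differed by −4.67 and −4.17 (mean −4.42).

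The profile over IgG was similar between libraries on the heavy strand. Across the 3523 to 4263 bases covered in a pair of libraries, Pearson's r lay between 0.92 and 0.97 for the 6 pairs. On the light strand r was 0.96 within MOLM13 (177 bases) and 0.99 within THP1 (214 bases), but between −0.09 and 0.26 for pairs of different lines. Light-strand bases pool MT-ND6 with a tRNA cluster at 15962 to 15991, so r between lines does not describe MT-ND6 alone. In MOLM13 replicate 1 this tRNA cluster (−1.21) lay below all MT-ND6 clusters (lowest −0.46). In THP1 replicate 1 a tRNA cluster there (15966 to 15991, −1.76) lay above them (highest −2.32). The highest MT-ND6 cluster lay within 14452 to 14508 in each library. The r values are descriptions across neighbouring bases, which share clusters and libraries and are not independent. Of the input peaks of MOLM13 replicate 1 on the mitochondrial chromosome, 8 of 8 shared bases with one of replicate 2, and 8 of 10 the other way round, the rest being MT-ND3. In THP1 the overlap was 10 of 11 and 12 of 15, and the peaks without a partner were all in MT-ND6. The overlap of replicates over all input peaks was not counted, so these counts are not read against it. The single THP1 input library may stand behind both THP1 replicates, which the sources used here do not state.

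Set beside the 3741 gene names with a peak over input in all 4 immunoprecipitates, the 3 mitochondrial genes among them were below the median. The median gene's highest peak had a log2 fold of 5.25 and 5.07 in MOLM13 and 5.61 and 5.51 in THP1. MT-ND2 stood at percentiles 18.6 and 24.3 in MOLM13 and 40.8 and 44.0 in THP1. MT-ND6 stood at percentiles 4.78 and 2.62, and 10.6 and 13.9. The THP1 mean exceeded the MOLM13 mean by 1.08 for MT-ND2, 0.77 for MT-ND6 and 0.58 for MT-ND1, against a median of 0.38 over all these genes. By this difference MT-ND2 was at percentile 81.8, MT-ND6 at 69.7 and MT-ND1 at 60.6. By Euclidean distance between the highest folds in the 4 libraries, STAT5B, AL645465.1 and TOGARAM1 were nearest to MT-ND1 (0.17 to 0.20). AL513329.1, TNFRSF12A and HDAC6 were nearest to MT-ND2 (0.12 to 0.20), and ATXN3, ZNRF2 and MRI1 to MT-ND6 (0.24 to 0.31).

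Nuclear DNA holds copies of mitochondrial genes, and a peak on MTND2P28, a copy of MT-ND2 on chromosome 1, was listed in all 4 tables. It lay 620 to 710 bases after the annotated start of the copy in THP1 replicate 1 (630260 to 630350), and the main MT-ND2 peak lay 617 to 694 bases after the start of MT-ND2 in the same library. The log2 fold over input was 4.64 and 3.48 in MOLM13 and 5.23 and 5.09 in THP1. Over IgG the copy's MOLM13 values were 0.65 and −0.57, and its THP1 values 4.28 and 4.26. The copy's −log10 p over input was 6.64 and 5.72 in MOLM13, and 85.1 and 400 in THP1. The main MT-ND2 peak was at the ceiling of 400 in all 4 libraries. No source used here says how reads that match both places were counted, and RNA of the copy and of MT-ND2 cannot be told apart.

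Nuclear genes encode the other subunits of complex I. Of the 37 listed, 35 had clusters in both MOLM13 replicates and 9 of these (25.7%, beside 40.1% of all protein-coding genes) had a peak over input in both. In THP1 it was 7 of 33 (21.2%, beside 43.6%). Among them were NDUFA12 and NDUFS1, the latter encoding the largest iron-sulphur subunit. Their log2 folds over input were 8.24 and 7.94, and 5.64 and 5.70, in MOLM13, and 6.82 and 7.63, and 5.76 and 5.45, in THP1. These peaks were annotated in distal introns, unlike those of the mitochondrial mRNAs. NDUFB4 had 5.08 and 4.86 in the 3' UTR in MOLM13, with 3.09 and 2.51 over IgG. Whether these shares differ from that of all genes was not tested.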

How the data were processed

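The members and gene lists were chosen with earlier results of these data known. Per the submitters' processing notes, edgeR, Picard 2.6.0, STAR 2.5.0c and cutadapt 1.14 were used and hg38, hg19 and GRCh37 are listed as builds, with no role for each. Peak caller, test and depth: not given in the sources used here. Contig names in the files are those of hg38. The authors deposited, for each immunoprecipitate by itself, a −log10 p (capped at 400) and a log2 fold per cluster, over IgG for all clusters and over input for clusters past both limits only. How the folds were scaled is not given. Input peaks were matched to the IgG lists by identical coordinates (at least 99.8% matched), which also ties the THP1 lists, numbered differently, to their replicates. Clusters on the mitochondrial chromosome were assigned to the RefSeq gene (GRCh38.p14) with the largest overlap. The same strand was required for mRNA and rRNA genes, but not for tRNA genes. Gene counts used 20056 protein-coding genes, 3231 of them on both strands because no strand was at hand. Named genes were the 5 members, the other mitochondrial RNAs by counts and single values, the 3 clusters of highest fold per strand, up to 4 nuclear genes per list (nuclear copies such as MTND2P28 included), and the 3 nearest genes by Euclidean distance. NES, VGF, SOX10 and CSPG4 fall outside this rule and were named after their values were seen, and cell type markers came from a list. Overlap meant 1 shared base. Python 3.11.15 with pandas 2.3.3 was used, and functions were tested on simulated data.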

Additional observations from a re-analysis of the deposited data

Results flagged for a closer look

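At the shared MT-ND6 site, the log2 fold over IgG minus the median of all clusters of its list was above 0 in every MOLM13 replicate (0.41 and 0.42) and below 0 in every THP1 replicate (−2.33 and −2.17). Without the median subtracted, MOLM13 replicate 2 was below 0 as well (−0.18). The difference between the lines was not tested.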

How the results depend on the processing

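When a log2 fold of 4 over input was required, 1 gene (MT-ND2) was called in both MOLM13 replicates and 3 (MT-ND1, MT-ND2, MT-ND6) in both THP1 replicates. The share of all protein-coding genes at a limit of 4 was not counted, over input or over IgG. Over IgG that limit left 0 genes in THP1, and a limit of 2, chosen after seeing the data, gave 3 genes in MOLM13 and 4 in THP1, without MT-ND6. Leaving out 1 replicate gave 3 to 4 genes over input in MOLM13. Light minus heavy strand in MOLM13, with a mean of 0.75, ranged from −0.06 to 1.57 when 1 replicate was left out. It was 0.50 with means, 0.15 weighted by length, 0.09 for clusters of at least 20 bases, and 0.05 for coding genes alone and also outside rRNA, tRNA and the control region, where the replicates had opposite signs (1.19 and −1.09). Against the 4 heavy-strand members it was −1.22 (−0.11 and −2.33). In THP1, where the mean was −1.08, it was −1.29 with means, −1.61 weighted by length, −1.57 for clusters of at least 20 bases, −2.39 for coding genes alone and also outside rRNA, tRNA and the control region, and −4.42 against the 4 members. No paired analysis was possible because the results come from no test between groups: the deposited folds already set each immunoprecipitate against a control, and THP1 had a single input. The depth is unknown, so it is not known how small a fold these libraries could show.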

Other observations

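Nuclear genes for complex I assembly and for mitochondrial RNA handling were counted beside all protein-coding genes, of which 40.1% in MOLM13 and 43.6% in THP1 had a peak over input in both replicates. The difference was not tested. Among 18 assembly factors, 6 of 17 with clusters were called in both MOLM13 replicates (35.3%) and 7 of 15 in THP1 (46.7%). NDUFAF6 had the highest log2 folds over input, 9.31 and 8.08 in MOLM13 and 8.96 and 8.20 in THP1. Among 21 genes for the transcription, processing and decay of mitochondrial RNA, 10 of 21 were called in MOLM13 and 10 of 20 in THP1. LRPPRC, which stabilises mitochondrial mRNAs, showed 7.38 and 5.84 in MOLM13 and, likewise in distal introns, 7.26 and 7.21 in THP1. GRSF1, a mitochondrial RNA-binding protein, had 6.24 and 5.71, and 6.85 and 6.42. SUPV3L1, the helicase of the mitochondrial degradosome, had 5.36 and 5.20 in MOLM13 but 3.45 and 4.84 in THP1.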
